A study of Mus musculus with 4 samples.

Results

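The genes described here are 10 redox genes in the mouse testis. Peroxides and superoxide are removed by the glutathione peroxidases Gpx4, Gpx1 and Gpx3, the peroxiredoxins Prdx4 and Prdx6, and the superoxide dismutases Sod1 and Sod2. The thioredoxin reductase Txnrd3 and the thioredoxins Txndc2 and Txndc8 belong to the thioredoxin system. All 10 genes were chosen by symbol and have a row among the 12415 gene exon sense features of the table. Testicular total RNA was sequenced from adult mice (postnatal day 60) on a C57Bl/6J background, in 2 libraries of Nef-sp-/- and 2 of Nef-sp+/- animals. NEF-sp, also known as RNA exonuclease 5, is an exoribonuclease that trims RNA from its end. The mutant allele carries an out-of-frame deletion of 23 bp in the coding sequence, made with a Cas9 nickase and a pair of guide RNAs. Nef-sp+/- animals are therefore not wild type, since they carry 1 copy of the deleted allele.

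Spermatozoa have membranes rich in polyunsaturated fatty acids and little cytoplasm, and are readily damaged by lipid peroxidation. Glutathione peroxidases and peroxiredoxins reduce peroxides, thioredoxins and their reductases pass electrons from NADPH to protein disulfides, and superoxide dismutases turn superoxide into hydrogen peroxide. Several of these enzymes are selenoproteins, in which a UGA codon is read as selenocysteine, and selenium deficiency is known to impair sperm formation. Late spermatids also use peroxidases and thioredoxins to form the disulfide bonds that stabilize sperm chromatin and tail structures.

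The selenocysteine codon is what separates the selenoproteins among these genes from the rest, and active-site codons of the thioredoxins and peroxiredoxins are shown for comparison. In the annotated coding sequences on mm9, Gpx4, Gpx1, Gpx3 and Txnrd3 each hold 1 in-frame TGA before the stop codon, and the other 6 genes hold 0. The sequences of the coding strand are given with this codon in capitals.
Gpx4 selenocysteine codon: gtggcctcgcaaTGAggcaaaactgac
Gpx1 selenocysteine codon: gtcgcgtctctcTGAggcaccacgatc
Gpx3 selenocysteine codon: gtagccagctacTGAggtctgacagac
Txnrd3 selenocysteine codon: cagaaaggctgcTGAggctag
The codon lies at chr10:79517482-79517484 in Gpx4, chr9:108241782-108241784 in Gpx1, chr11:54720758-54720760 in Gpx3 and chr6:89624783-89624785 in Txnrd3, all on the plus strand of mm9. It is codon 47 of 201 in Gpx1 and codon 73 of 226 in the complete coding sequence of Gpx3. Gpx4 has 2 annotated coding transcripts with different starts, of 197 and 253 codons, and the same TGA is codon 73 of one and codon 129 of the other. In the longer annotated Txnrd3 transcript it is codon 614 of 615, with 1 glycine codon between it and the stop.

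The thioredoxins and peroxiredoxins use cysteine instead. For Txndc2 and Txndc8, the capitals mark the cysteine, glycine, proline and cysteine codons of the thioredoxin active site, found as a tryptophan codon followed by a cysteine, any 2 codons and a cysteine. For Prdx4 and Prdx6, the capitals mark the cysteine that reacts with peroxide.
Txndc2 active-site codons: gccgcttggTGTGGCCCCTGCagaatgatg
Txndc8 active-site codons: gcaaagtggTGTGGCCCCTGCaaaacaatt
Prdx4 cysteine codon: ttcacctttgtgTGTccaactgaaatc
Prdx6 cysteine codon: tttaccccagtgTGCaccacagaactt
These codons lie at chr17:65987081-65987092 in Txndc2, chr4:58019971-58019982 in Txndc8, chrX:151767003-151767005 in Prdx4 and chr1:163177499-163177501 in Prdx6, all on the minus strand of mm9. The 12 capital bases are the same in Txndc2 and Txndc8. They begin at codon 477 of 550 in Txndc2, near its carboxyl terminus, and at codon 58 of 153 in Txndc8.

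The libraries held between 20659865 and 34442517 counted reads over all annotation categories, and between 15815159 and 26618821 gene exon sense reads. Over exon sense features as a whole, replicates were not within counting error of each other. Chi-square divided by its degrees of freedom was 8.53 between the Nef-sp+/- libraries and 3.52 between the Nef-sp-/- libraries. The coefficient of variation was below counting error in both genotypes for Prdx6, Txnrd3, Txndc8 and Sod2. In the Nef-sp+/- pair it exceeded counting error for Gpx4 (6.32% against 1.89%), Prdx4 (6.55% against 1.99%), Sod1 (7.41% against 1.66%) and Txndc2. In the Nef-sp-/- pair it did so for Gpx1, Gpx3, Prdx4, Txndc2 and Sod1. The Nef-sp gene itself, listed as 2610020H08Rik, had 1843 and 1693 normalized counts in Nef-sp+/- against 406.5 and 497 in Nef-sp-/-, so that both libraries labelled Nef-sp-/- were the low ones. A normalized count is the count divided by the effective library size (TMM) relative to its mean over the libraries. Markers of spermatocytes, spermatids and Leydig cells were all listed, 4 of 6 Sertoli cell markers were, and 3 of 9 epididymis markers, at a summed 51.8 to 76.2 normalized counts. Nef-sp+/- replicate 1 stood apart from the other libraries in elongating spermatid markers: the summed normalized count of Prm1, Prm2, Prm3, Tnp1, Tnp2, Odf1 and Akap4 was 400024 there, against 497012 in Nef-sp+/- replicate 2 and 506346 and 493290 in Nef-sp-/- replicates 1 and 2. None of these 7 genes passed the test between genotypes, and 2 had an unadjusted p below 0.05. The labels do not say that the libraries came from separate animals of separate litters, so p-values measure the spread between these libraries.

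The 10 genes made up 0.262% ± 0.0096 of the gene exon sense reads in Nef-sp+/- and 0.265% ± 0.0011 in Nef-sp-/- (SD, n = 2 each). Txndc2 and Txnrd3 together accounted for 68.2% of these reads over the 4 libraries. Levels were compared between genes as normalized counts per kb of merged annotated exon, which could be computed for 9912 of the 10728 features tested. Txndc2, a spermatid thioredoxin of the sperm tail fibrous sheath, was the most abundant, with a mean of 11024.8 ± 753 per kb over the 4 libraries (SD, n = 4), and ranked 66 among the 9912 features. Sod1, the copper-zinc enzyme of the cytosol, followed with 5145.8 ± 244 per kb, Txnrd3 with 4416.6 ± 32.8 and Txndc8 with 3480.7 ± 26.1 per kb (SD, n = 4 each). Gpx4 reached 1572 ± 69.3, Prdx4 1181.1 ± 105 and Prdx6 691.3 ± 16.8 per kb (SD, n = 4 each). Gpx1 and Sod2 were close to each other, with 509.8 ± 34.6 and 483.8 ± 6.80 per kb (SD, n = 4 each), and their ranges over the libraries overlapped. Every other pair of neighbours in this order had ranges that did not overlap. This order rests on the full exon length, although reads across exon junctions may be missing from the counts, which would lower genes with short exons more. Txndc8 holds 390 stretches of 50 bases within single exons for its 0.684 kb, and Txnrd3 holds 2052 for its 2.836 kb. The order of these genes is therefore uncertain. Gpx3, the secreted plasma enzyme, was far below the rest with 11.0 ± 5.19 per kb (SD, n = 4), with only 11.6% of the ranked features lower and a median feature at 131.1 per kb. The 3 thioredoxin system genes, which are known for expression in developing sperm, were among the 4 highest of the 10.

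**Figure D1:**
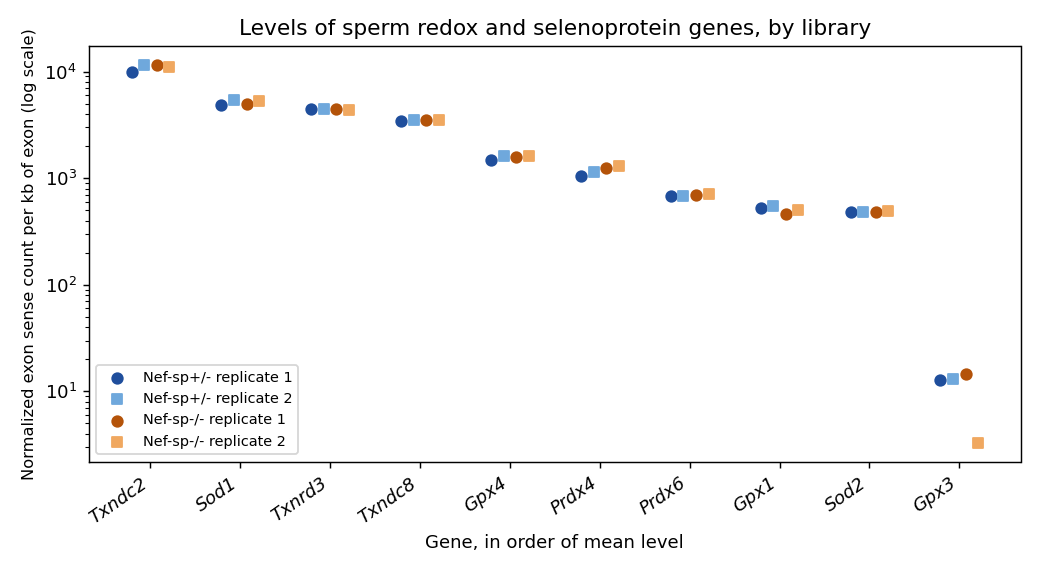
Normalized exon sense counts per kb of annotated exon for the 10 genes, on a log axis, with 1 point per library (blue, Nef-sp+/-; orange, Nef-sp-/-) and no error bars. Genes run from Txndc2, with a mean of 11024.8 per kb, to Gpx3, with 11.0 per kb, and the libraries of a gene lie close together except for Gpx3 in Nef-sp-/- replicate 2.

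To ask whether the loss of NEF-sp altered these transcripts, the exon sense counts of the genotypes were compared with edgeR over all 10728 features that passed the expression filter. All 10 genes passed this filter, and none had an adjusted p below 0.05, the threshold used. In the same fit, 0.00932% of the features were called, which is the Nef-sp gene alone, and 515 features had an unadjusted p below 0.05. Among the 10 genes, 1 had an unadjusted p below 0.05, and DESeq2 called none of them. The log2 fold change (Nef-sp-/- over Nef-sp+/-) was positive in 6 and negative in 4 of the genes. Its median was 0.02 over the 10 genes and 0.00 over all features, and the median of its absolute value was 0.06 and 0.07. Because bulk tissue was sequenced, fewer cells of a type and less RNA per cell cannot be told apart in any of these values.

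Both Nef-sp-/- libraries lay above both Nef-sp+/- libraries for 3 genes, Prdx4, Prdx6 and Txndc8, while 16.4% of all features showed this. Both lay below for 2 genes, Gpx1 and Txnrd3, while 18.1% of all features did. These counts depended on the scaling. With the library size over all annotation categories in place of TMM, Txndc8 moved from above to below, and with DESeq2 size factors Txnrd3 overlapped. Prdx4, Prdx6 and Gpx1 kept their side under all 3 scalings.

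**Figure D2:**
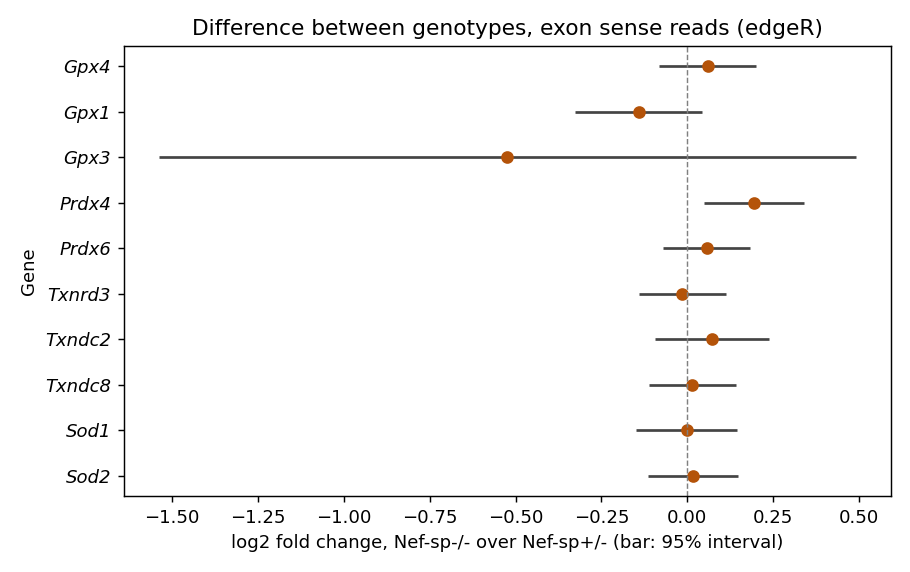
Log2 fold change of exon sense reads, Nef-sp-/- over Nef-sp+/-, for the 10 genes (points) with 95% intervals from edgeR (bars). The interval of Prdx4 lies above 0, from 0.05 to 0.34, before adjustment for the number of features; all others include 0, and that of Gpx3 is the widest, from -1.54 to 0.49.

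Gpx4 encodes the enzyme that reduces phospholipid hydroperoxides in membranes, and in sperm it becomes a structural protein of the mitochondrial capsule of the midpiece. Its normalized counts were 2462 and 2692 in Nef-sp+/- against 2664 and 2714 in Nef-sp-/-. Nef-sp+/- replicate 1 was the lowest, and the other libraries lay close together, so that the genotypes overlapped. The means were 2577 ± 163 and 2689 ± 35.5 (SD, n = 2 each), with a log2 fold change of 0.06 (95% interval -0.08 to 0.20, adjusted p = 0.956 from edgeR). It was -0.001 without Nef-sp+/- replicate 1 and 0.13 without Nef-sp+/- replicate 2. Of the 1234 stretches of 50 bases within the annotated Gpx4 exons, 428 (34.7%) also occur at chr10:45595142-45595872 of mm9, where no gene is annotated, and 58 stretches occur within the Hnrpll gene at chr17:80453687-80453977. How reads with several matches were assigned is not given in the sources used here, so that the level of Gpx4 is uncertain to that extent.

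Gpx1 encodes the soluble glutathione peroxidase of most cells. It had 443.1 and 461.9 normalized counts in Nef-sp+/- against 392.6 and 429.5 in Nef-sp-/-, with both mutant libraries just below both controls. The means were 452.5 ± 13.3 and 411.1 ± 26.1 (SD, n = 2 each), for a log2 fold change of -0.14 (95% interval -0.33 to 0.04, adjusted p = 0.954 from edgeR). It was -0.08 without Nef-sp-/- replicate 1 and -0.20 without Nef-sp-/- replicate 2.

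Gpx3 had only 20 and 34 reads in Nef-sp+/- against 23 and 5 reads in Nef-sp-/-. Nef-sp-/- replicate 2 was the single low library, at 5.92 normalized counts, while the other 3 lay between 23.0 and 26.6. The log2 fold change was -0.52 (95% interval -1.54 to 0.49, adjusted p = 0.956 from edgeR), and it was 0.17 without Nef-sp-/- replicate 2. The coefficient of variation of the Nef-sp-/- pair was 89.9%, against 26.7% from counting error alone.

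Prdx4, an X-linked gene, encodes the peroxiredoxin of the endoplasmic reticulum, where it couples peroxide to the oxidation of protein thiols. Its normalized counts were 2210 and 2425 in Nef-sp+/- against 2596 and 2719 in Nef-sp-/-. The mutant values were both above the control values, and the means were 2317 ± 152 and 2658 ± 87.0 (SD, n = 2 each). This was a log2 fold change of 0.195 (95% interval 0.05 to 0.34, unadjusted p = 0.013), which did not pass the adjustment over all features (adjusted p = 0.954 from edgeR). Leaving out Nef-sp+/- replicate 2 gave 0.27, and Prdx4 was then among the features called. That comparison called many more features than the main fit, most of them higher in Nef-sp-/-. With 1 Nef-sp+/- library left, whichever was omitted, the spread came from the Nef-sp-/- pair alone. That pair differed less than the Nef-sp+/- pair, and the lone library was assumed to vary in the same way. Why the calls differed with the library omitted was not tested. Leaving out Nef-sp+/- replicate 1 gave 0.13, and Prdx4 was not called. Over all alternatives, the log2 fold change of Prdx4 ran from 0.13 to 0.27. The control kept when Nef-sp+/- replicate 2 was left out is the library with fewer elongating spermatid marker reads. The part of this in the Prdx4 value was not tested.

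Prdx6 encodes a peroxiredoxin with a single active cysteine that also has phospholipase activity. It had 2476 and 2502 normalized counts in Nef-sp+/- against 2560 and 2614 in Nef-sp-/-. The genotypes did not overlap, but the mean of 2489 ± 18.7 against 2587 ± 37.8 (SD, n = 2 each) amounts to a log2 fold change of 0.06 (95% interval -0.07 to 0.18, adjusted p = 0.956 from edgeR).

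Txnrd3 encodes thioredoxin-glutathione reductase, a selenoprotein enriched in the testis that serves both the thioredoxin and the glutathione system. Its normalized counts were 12580 and 12590 in Nef-sp+/- against 12540 and 12390 in Nef-sp-/-. The 4 libraries spanned 98.9% to 100.5% of their mean, the narrowest span among the 10 genes. The log2 fold change was -0.01 (95% interval -0.14 to 0.11, adjusted p = 0.99 from edgeR).

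Txndc2 had 18910 and 21920 normalized counts in Nef-sp+/- against 21980 and 20940 in Nef-sp-/-. The only library to stand aside was Nef-sp+/- replicate 1, at 90.3% of the mean over libraries, and the genotypes overlapped. The coefficient of variation of the Nef-sp+/- pair was 10.4%, against 0.668% from counting error alone. The means were 20420 ± 2130 and 21460 ± 735 (SD, n = 2 each), for a log2 fold change of 0.07 (95% interval -0.095 to 0.24, adjusted p = 0.956 from edgeR). It was -0.03 without Nef-sp+/- replicate 1, and 0.18 without Nef-sp+/- replicate 2, where the adjusted p from edgeR was 0.05 after rounding and did not pass the threshold. Of the stretches of 50 bases in its exons, 9.42% occur more than once within the gene and 0 elsewhere in the genome.

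Txndc8 encodes another spermatid thioredoxin, which is associated with the Golgi apparatus and the forming acrosome. Its normalized counts were 2357 and 2379 in Nef-sp+/- against 2387 and 2400 in Nef-sp-/-. The coefficients of variation of 0.669% and 0.371% were below the 1.98% and 2.21% of counting error, and the log2 fold change was 0.015 (95% interval -0.11 to 0.14, adjusted p = 0.99 from edgeR). The genotype means, 2368 and 2393, differed by less than these counting errors.

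Sod1 (chr16:90220987-90226567, plus strand of mm9) had 3150 and 3498 normalized counts in Nef-sp+/- against 3240 and 3408 in Nef-sp-/-. The Nef-sp-/- libraries fell between the controls, and the mean was 3324 in both genotypes, with SDs of 246 and 118 (n = 2 each). The log2 fold change was -0.002 (95% interval -0.15 to 0.15, adjusted p = 0.999 from edgeR). A share of 20.7% of its exonic stretches of 50 bases also occurs in the pseudogene Gm8566 on chromosome 6. Sod2 (chr17:13200705-13210985, plus strand), the manganese enzyme of the mitochondrial matrix, had 1829 and 1849 normalized counts in Nef-sp+/- against 1836 and 1887 in Nef-sp-/-. These values overlapped as well, and the log2 fold change was 0.02 (95% interval -0.11 to 0.15, adjusted p = 0.99 from edgeR). Most of the annotated Sod2 transcript is noncoding, with 17.5% of its 3824 bases in the coding sequence. A share of 25.5% of its stretches of 50 bases occurs elsewhere in the genome, over 11553 regions, with 847 matches in the Mllt4 gene on chromosome 17. As for Gpx4, the levels of Sod1 and Sod2 are uncertain to that extent.

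After TMM, Nef-sp+/- replicate 1 was the lowest library for 7 of the 10 genes, while it was the lowest for 26.8% of all features. This count depended on the scaling: it was 7 with DESeq2 size factors, 4 with the library size over all categories (19.6% of all features), and 3 with the plain total of exon sense reads (18.7% of all features), a scaling added after the data were seen. Gpx4, Prdx4 and Txndc2 had their lowest value in this library under all 4 scalings. With TMM it was at 90.3% of the mean for Txndc2, 88.8% for Prdx4, 93.5% for Gpx4 and 94.8% for Sod1, and between 97.5% and 99.0% for Prdx6, Sod2 and Txndc8. The summed elongating spermatid markers were at 84.4% of their mean in the same library and between 104.0% and 106.8% in the others, and the library stayed the lowest for this sum under the other scalings, at 84.2% to 86.4%. The summed round spermatid markers (Acrv1, Spaca1, Tssk1, Acr and Spag6) were at 99.3% to 100.4% in all 4 libraries, and the summed spermatocyte markers at 94.7% to 104.2%. Single round spermatid genes varied more than their sum. Tssk1 was lowest in Nef-sp+/- replicate 1, at 11680 normalized counts, against 12830 in Nef-sp+/- replicate 2 and 12140 and 12120 in Nef-sp-/-. Spag6 was lowest in Nef-sp+/- replicate 2 (10310), and Acr in Nef-sp-/- replicate 2 (2757). What part the lower elongating spermatid signal of this library has in the values of the genes was not tested. The summed Leydig cell markers were lowest in Nef-sp-/- replicate 2, at 87.5% of their mean, which is also the library with 5 reads of Gpx3. The 6 genes of this list were not alike: Cyp17a1 and Cyp11a1 had lower values in both Nef-sp-/- libraries (unadjusted p = 0.0042 and 0.00148, adjusted p = 0.954 and 0.859 from edgeR). Star had its lowest value in Nef-sp-/- replicate 2, at 1214 normalized counts, against 2403 in Nef-sp-/- replicate 1 and 1366 and 2030 in Nef-sp+/-. Insl3 and Hsd3b1 were highest in Nef-sp-/- replicate 2, and the median log2 fold change of the list was 0.045. Their part in the Gpx3 value was not tested.

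**Figure D3:**
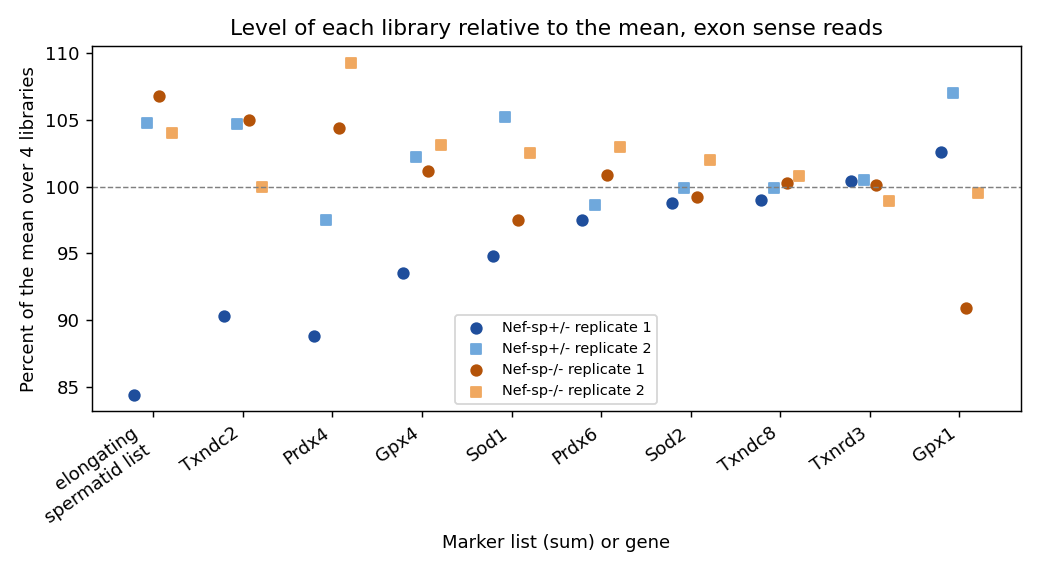
Normalized exon sense level of each library as a percent of the mean over the 4 libraries, for the summed elongating spermatid markers and for 9 of the genes (Gpx3, at 29.8% to 133.7%, is left out), with 1 point per library and no error bars. Nef-sp+/- replicate 1 (dark blue) is, after TMM, lowest for the marker list, at 84.4%, and for Txndc2, Prdx4, Gpx4 and Sod1, while the 4 libraries nearly coincide for Txndc8 and Txnrd3.

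Reads outside sense exons were fewer. Gpx4 had 7.44 intron sense reads per 100 exon sense reads over the 4 libraries, the highest ratio among the genes, and Sod1 had 1.84. The ratio was 0.0279 for Txnrd3, with 5, 5, 1 and 3 intron sense reads in the libraries, and Gpx1, Gpx3 and Txndc2 had no intron row. These ratios are not corrected for the length of introns. Of the genes with intron sense rows, 5 passed the expression filter, and none was called. In this category, 0.0294% of 3403 features were called, 80 had an unadjusted p below 0.05, and DESeq2 called 0. Normalized intron sense counts of Gpx4 were 176 and 203.1 in Nef-sp+/- against 188.1 and 214.5 in Nef-sp-/-, which overlapped (log2 fold change 0.08, adjusted p = 1 from edgeR).

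The Prdx4 intron sense value had the opposite sign to its exon value, and neither passed the adjusted threshold. There were 16 and 23 reads in Nef-sp+/- against 4 and 11 in Nef-sp-/-, or 17.9 and 16.9 against 4.76 and 12.1 normalized counts. Both mutant libraries were below both controls, with a log2 fold change of -1.01 (95% interval -1.95 to -0.07, unadjusted p = 0.0368), and the adjusted p was 1 from edgeR. Without Nef-sp-/- replicate 1 the log2 fold change was -0.53, and without Nef-sp-/- replicate 2 it was -1.84. Intron sense reads of Sod1 also lay below both controls in both mutant libraries, at 61.9 and 51.7 against 65.0 and 65.5 normalized counts. So did the few reads of Txnrd3, which was not tested. The intron sense reads of Gpx4, Prdx6, Txndc8 and Sod2 overlapped between genotypes. The share of all intron sense features with no overlap between genotypes is not given here.

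Antisense reads were listed for 2 of the genes. Normalized exon antisense counts of Txndc2 were 33.8 and 40.2 in Nef-sp+/- against 50.1 and 46.4 in Nef-sp-/-. Both mutant libraries were above both controls, and the log2 fold change was 0.36 (95% interval -0.13 to 0.85, adjusted p = 0.996 from edgeR). They amounted to 0.201 per 100 exon sense reads of the gene. The share of all exon antisense features with no overlap between genotypes is not given here. In the gene exon antisense category 0% of 1008 features were called by edgeR, with 30 at an unadjusted p below 0.05 and 0 called by DESeq2. In the intron antisense category it was 0% of 1421 features, with 64 at an unadjusted p below 0.05 and 0 called by DESeq2. Sod1 had more intron reads on the antisense strand, 468 over the 4 libraries, than on the sense strand, 246, although no other gene is annotated across the Sod1 locus in GENCODE vM1. Their normalized counts were 110.8 and 122 in Nef-sp+/- against 105.9 and 126.2 in Nef-sp-/-, which overlapped (log2 fold change -0.02, adjusted p = 0.993 from edgeR).

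The wider redox and selenium pathways were described by 8 lists, in which the 10 genes are included where they belong. In total, 76 genes of these lists were tested, and none was called in either direction by edgeR or by DESeq2. Among the 5 glutathione peroxidases tested, the log2 fold changes ran from -0.69 to 0.06, with a median of -0.14 against 0.00 over all features. The most negative was that of Gpx8, an endoplasmic reticulum member that had 19.6 and 15.5 in Nef-sp+/- against 11.6 and 9.47 normalized counts in Nef-sp-/- (adjusted p = 0.954 from edgeR), chosen after its value was seen. The median of the 7 peroxiredoxin and sulfiredoxin genes was 0.06, and 1 of them, Prdx4, had an unadjusted p below 0.05.

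The 21 thioredoxin, thioredoxin reductase and glutaredoxin genes tested had a median log2 fold change of 0.015. The only one of them with an unadjusted p below 0.05 was Nme8 (listed as Txndc3), a thioredoxin domain protein of the sperm tail. It had 3511 and 3782 normalized counts in Nef-sp+/- against 4219 and 4004 in Nef-sp-/-, which gave a log2 fold change of 0.17 (95% interval 0.03 to 0.31, adjusted p = 0.954 from edgeR). As for Txndc2, its lowest library was Nef-sp+/- replicate 1. In the list of superoxide dismutases and catalase the median was -0.03 over 5 genes. Catalase (Cat), which breaks down hydrogen peroxide in peroxisomes, had an unadjusted p below 0.05, with 140.4 and 153.5 normalized counts in Nef-sp+/- against 117.8 and 124.2 in Nef-sp-/-. The log2 fold change of Cat was -0.29 (95% interval -0.58 to -0.005, adjusted p = 0.954 from edgeR).

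Of 24 selenoprotein genes, 18 were tested, with a median log2 fold change of -0.02, a range from -0.52 to 0.30 and 0 at an unadjusted p below 0.05. The highest normalized counts were those of Txnrd3 and of Sephs2, a selenoprotein that itself makes the selenium donor for selenocysteine synthesis. Sephs2 had 9623 and 9393 normalized counts in Nef-sp+/- against 9285 and 8732 in Nef-sp-/-, which gave a log2 fold change of -0.08 (95% interval -0.21 to 0.055, adjusted p = 0.954 from edgeR). The 10 genes tested for selenocysteine synthesis, insertion and selenium uptake had a median of -0.01. Sephs1, a paralog of Sephs2 without selenocysteine, had the smallest unadjusted p in the lists, 0.00673. Its normalized counts were 116.2 and 105.6 in Nef-sp+/- against 71.6 and 81.6 in Nef-sp-/-, without overlap, and the log2 fold change was -0.52 (95% interval -0.87 to -0.18, adjusted p = 0.954 from edgeR). Eefsec, the elongation factor that brings selenocysteinyl-tRNA to the ribosome, had a log2 fold change of -0.11 (adjusted p = 0.954 from edgeR).

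For glutathione synthesis and NADPH supply, 12 genes were tested and the median log2 fold change was -0.05. Me1, the cytosolic malic enzyme that makes NADPH, had 7568 and 7527 normalized counts in Nef-sp+/- against 6814 and 6768 in Nef-sp-/-. Both pairs of replicates were tight and did not overlap, and the log2 fold change was -0.15 (95% interval -0.28 to -0.03, unadjusted p = 0.0214, adjusted p = 0.954 from edgeR). Nnt, the mitochondrial transhydrogenase, had a log2 fold change of 0.07 (adjusted p = 0.956 from edgeR). The 9 tested genes of the Nrf2 response, the transcriptional program that oxidative stress is known to activate, had a median of 0.03, a range from -0.14 to 0.22 and 0 at an unadjusted p below 0.05. The highest counts in this list were those of Osgin1 and of Keap1, the inhibitor of Nrf2, with log2 fold changes of -0.03 (adjusted p = 0.99 from edgeR) and 0.03 (adjusted p = 0.986 from edgeR).

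**Figure D4:**
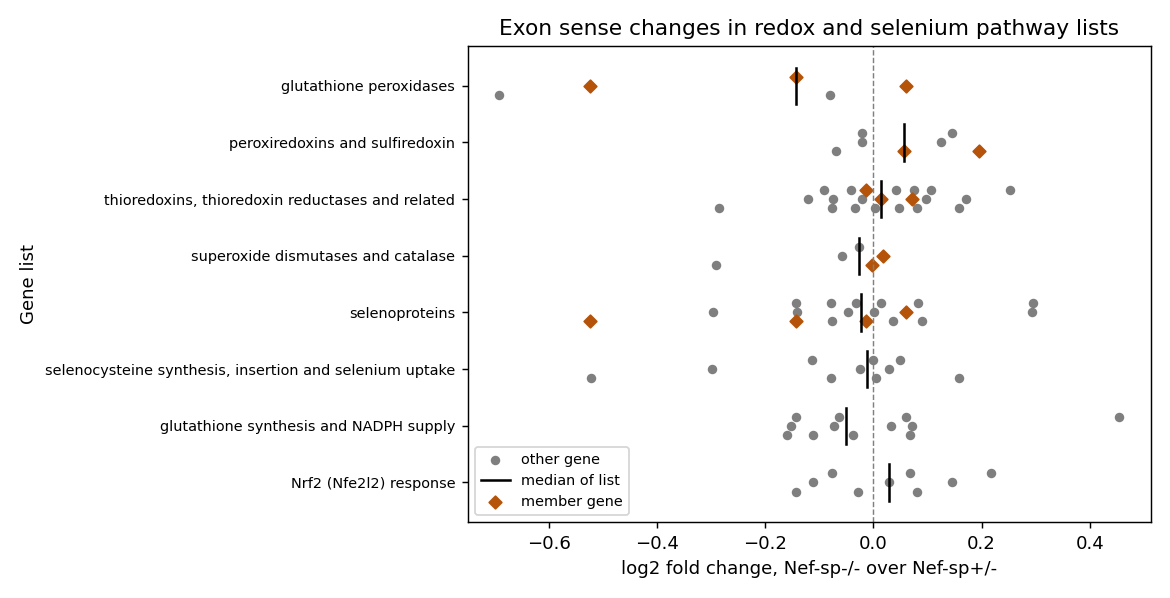
Log2 fold change of exon sense reads, Nef-sp-/- over Nef-sp+/-, for the tested genes of the 8 pathway lists, with 1 point per gene (orange diamonds, the 10 genes described here; grey, other genes) and a black line at the median of each list; vertical offsets only separate points. The medians lie between -0.14 and 0.06, and none of the genes shown was called.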

How the data were processed

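Total testicular RNA was depleted of ribosomal RNA, made into strand-specific libraries (TruSeq Stranded Total RNA) and sequenced for 50 cycles. The authors removed adapters, mapped reads to mm9 with in-house tools (versions not given in the sources used here), kept perfect matches and deposited raw read counts by feature, annotation category and strand. The table lists 25745 features in 10 categories, each with at least 5 reads over the 4 libraries. It also holds their DESeq2 means, fold changes and p-values, which were not used. Since reads had to match the genome perfectly, reads across exon junctions may be missing from the counts. The treatment of such reads, and of reads with several matches, is not given in the sources used here.

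Counts of each category were fitted with the quasi-likelihood test of edgeR 4.0.16 (R 4.3.3) after TMM and its expression filter (minimum count 10), without covariates, and p-values were adjusted by the Benjamini-Hochberg method within the category. The interval of a log2 fold change uses its standard error and total degrees of freedom. The procedure was tested on simulated data. The alternatives were DESeq2 size factors, the library size over all categories, no filter, at least 10 counts in every library, the test of DESeq2 1.42.0, a replicate block, and the omission of 1 library at a time.

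Gene positions, exon lengths and codons came from GENCODE vM1, and stretches of 50 bases were searched on both strands of mm9 (NCBIM37). Older symbols were matched through RefSeq synonyms. Named were the 10 genes and, from each list, genes with an unadjusted p below 0.05 and the 2 with the highest counts. The genes and lists were chosen with earlier results of these data known. Figures were drawn with matplotlib 3.10.9.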

Additional observations from a re-analysis of the deposited data

How the results depend on the processing

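None of the 10 genes was called with DESeq2 size factors, the library size over all categories, no filter, a minimum of 10 counts in all libraries, DESeq2 or the replicate block, and 1 feature, the Nef-sp gene, was called in each of these except DESeq2, with 2. Gpx3 could not be tested with at least 10 counts in every library. When 1 library at a time was omitted, the number of features called ran from 1 to 252 (41 without Nef-sp+/- replicate 1 and 252 without Nef-sp+/- replicate 2), and the number of the 10 genes called from 0 to 1. The list genes called were Prdx4 and Srxn1 of the peroxiredoxin list and Txnip and Glrx2 of the thioredoxin list, all without Nef-sp+/- replicate 2. Srxn1 is also in the Nrf2 list. The log2 fold changes there were 0.27 for Prdx4, 0.35 for Srxn1, -0.44 for Txnip and 0.30 for Glrx2. That fit tested 10878 features, and most of those called were higher in Nef-sp-/-. With a library left out, the spread of these fits came from the 2 libraries of the other genotype, and the lone library was assumed to vary like them. The cause was not tested.

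Several log2 fold changes turned sign, most of them close to 0, but also those of Gpx3 exon and Prdx6 intron reads. That of Sod1 was 0.001 with DESeq2 size factors, 0.002 with DESeq2 and 0.001 with the replicate block. With the library size over all categories, which moved the median of all features to -0.02, it was -0.009 for Txndc8 and -0.006 for Sod2. With 1 library left out, it ran from -0.001 to 0.128 for Gpx4, from -1.973 to 0.174 for Gpx3, from -0.03 to 0.182 for Txndc2 and from -0.073 to 0.078 for Sod1. For intron sense reads it ran from -0.02 to 0.184 for Gpx4, from -0.674 to 0.211 for Prdx6 and from -0.333 to 0.16 for Txndc8, and for Sod1 intron antisense reads from -0.147 to 0.115. Libraries with the same replicate number deviated from their group means with a correlation of -0.09 across features, the labels do not say that a number marks a shared litter or day, and the replicate block changed no call among the 10 genes.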
